A study of Mus musculus with 18 samples.

Results

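The transcripts of the Fgf receptors and of the genes that ERK signalling switches on to restrain itself were followed in mammary bud epithelium of mouse embryos with and without stabilized β-catenin. The 10 genes were chosen by symbol, with earlier results of these data known. Chosen were the receptor genes Fgfr1, Fgfr2, Fgfr3 and Fgfr4, the ETS factor genes Etv4 and Etv5, the phosphatase gene Dusp6 and the Sprouty genes Spry1, Spry2 and Spry4. They were 10 of the 24376 genes in the count table, and all 10 were among the 17269 genes that passed the filter on low counts and were tested. The receptor genes and the feedback genes each included some that passed the test between genotypes, while the balance between receptors was not tested. For 6 of the 10 genes the test of the difference between the E16.5 and E13.5 genotype effects was passed. Of all genes tested, 15.6% passed it with a positive and 16.6% with a negative difference.

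Fgf ligands bind receptor tyrosine kinases at the cell surface together with heparan sulphate, and the active receptor signals through Ras, Raf and MEK to the kinase ERK. ERK activity raises transcription of ETS factors, which carry the signal to target genes, and of Dusp6 and the Sproutys, which damp it, so these transcripts are widely used as readouts of the pathway. In the mouse embryo, Fgf10 made by mesenchyme and its receptor Fgfr2 in the epithelium are known to be needed for most mammary buds to form.

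RNA was sequenced from epithelium of mammary buds 1 to 3, freed from ventral skin with enzymes and dissected by hand, in mice of mixed C57Bl/6 and NMRI background. Embryos of the stabilized groups had Krt14Cre, 1 wild-type Ctnnb1 allele and 1 Ctnnb1 allele with loxP sites around exon 3. Cre cuts that exon out, and the shortened β-catenin, which carries the canonical Wnt signal, escapes degradation. Controls were littermates with the same Ctnnb1 alleles and without Cre. There were 5 stabilized and 5 control libraries at E16.5, from female embryos, and 4 stabilized and 4 control libraries at E13.5, where both sexes were used. Each library pooled 2 to 3 embryos of 1 litter and genotype, and the litter behind each library was not given. Cre is driven by the promoter of the basal keratin gene Krt14, controls had no Cre, and the share of recombined cells was not measured, so effects of Cre itself and of β-catenin cannot be told apart. Stage and sex makeup likewise cannot be told apart.

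Libraries held 26768810 to 36922108 counts. Levels are given as CPM, counts scaled to the TMM-adjusted library total, with SD, and n = 5 at E16.5 and n = 4 at E13.5. Differences are log2 fold changes from edgeR with SE, and a gene was called changed at a Benjamini-Hochberg adjusted p under 0.05. Axin2, a common readout of canonical Wnt signalling, had 255 ± 42.0 CPM in E16.5 stabilized and 27.9 ± 6.36 CPM in E16.5 control libraries, a log2 fold change of 3.19 ± 0.170 (edgeR adjusted p = 2.85e-11). At E13.5 it had 424 ± 57.2 CPM in stabilized and 312 ± 53.6 CPM in control libraries, and its log2 fold change of 0.45 ± 0.174 was not called (edgeR adjusted p = 0.0976). The summed level of 7 epithelial markers was 3542 to 6629 CPM in E16.5 stabilized, 2278 to 2556 CPM in E16.5 control, 2527 to 3296 CPM in E13.5 stabilized and 2547 to 3096 CPM in E13.5 control libraries. At E16.5, 3 of the 7 markers rose and 3 fell, where 22.2% of all genes tested rose and 19.4% fell. Krt5 had 1684 to 3855 CPM in stabilized and 355 to 599 CPM in control libraries. In the same groups Trp63 had 684 to 788 and 76.2 to 106 CPM, and Cdh1 had 480 to 840 and 304 to 396 CPM. Epcam fell to 179 to 248 CPM in stabilized, against 403 to 430.5 CPM in control libraries (edgeR adjusted p = 6.71e-07). Krt8 had 15.6 to 93.8 CPM and Krt18 had 23.5 to 76.6 CPM in E16.5 stabilized libraries, against 183 to 291 CPM and 129.5 to 254 CPM in E16.5 controls. At E13.5, 1 of the 7 markers rose and 2 fell, where 9.58% of all genes tested rose and 5.29% fell. Krt14 had 264 to 416 CPM in E13.5 stabilized and 721 to 958 CPM in E13.5 control libraries (edgeR adjusted p = 0.00169). In those groups Krt8 had 66.2 to 112.5 and 237 to 301 CPM, and Krt5 had 923 to 1672 and 498 to 755 CPM. Marker lists of endothelium, immune cells, muscle and nerve summed to at most 22.8 CPM in any library. E13.5 control replicate 3 lay farthest from the rest of its group and had the highest summed level of 11 mesenchymal markers, 540.4 CPM, against 24.3 to 228 CPM in the other E13.5 controls. E16.5 stabilized replicate 4 had 25.7% of its counts in its 10 largest genes, against 3.44 to 6.54% in the other 17 libraries. Predicted genes of the Gm10800 family took 22.5% of the counts of that library and at most 0.736% in the others.

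At E16.5, 3 of the 10 genes rose in stabilized buds (Fgfr2, Fgfr3 and Spry1) and 3 fell (Fgfr1, Etv5 and Dusp6), while Fgfr4, Etv4, Spry2 and Spry4 did not pass. Over all genes tested, 22.2% rose and 19.4% fell in that comparison. At E13.5, 6 rose (Fgfr3, Etv5, Dusp6, Spry1, Spry2 and Spry4) and 1 fell (Fgfr2), against 9.58% and 5.29% of all genes tested. All stabilized libraries lay above all controls for 3 genes and below them for 4 at E16.5, against 18.4% and 17.9% of all genes tested. At E13.5 they lay above for 7 genes and below for none, against 9.93% and 6.6%. The median log2 fold change of the 10 genes was -0.04 at E16.5, beside 0.10 for all genes, and 0.95 at E13.5, beside 0.01 for all genes. The difference between the E16.5 and the E13.5 genotype effect was itself called for 6 genes: it was positive for Fgfr2 and Fgfr3 and negative for Fgfr1, Etv5, Dusp6 and Spry2, where 15.6% and 16.6% of all genes were called in those directions.

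**Figure D1:**
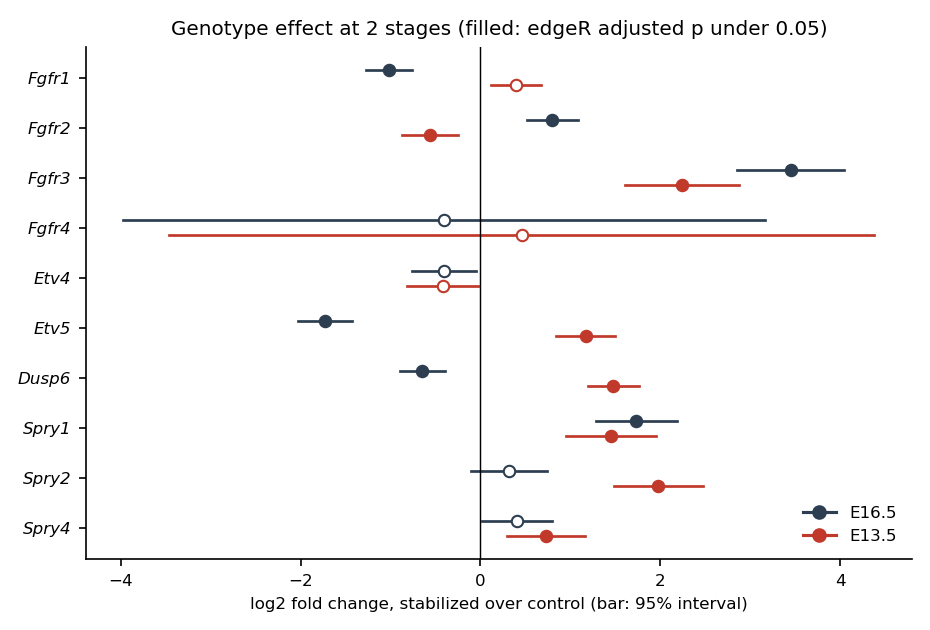
Log2 fold change of each gene, stabilized over control, with its 95% interval, at E16.5 (dark) and E13.5 (red); filled points had an edgeR adjusted p under 0.05. The points of Fgfr1, Fgfr2, Etv5 and Dusp6 lie on opposite sides of 0 at the 2 stages, as do those of Fgfr4 with intervals that span 0, while those of Fgfr3 and Spry1 lie right of 0 at both.

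The plot of genotype effects shows which genes turned round. For Fgfr2, Etv5 and Dusp6 the test was passed at both stages in opposite directions. Fgfr3 and Spry1 rose in stabilized buds at both stages.

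Among the receptors, Fgfr3 rose at both stages, Fgfr2 was higher at E16.5 and lower at E13.5, and Fgfr1 fell at E16.5. In bulk RNA, more cells that use a gene and more of its RNA per cell cannot be told apart, and this holds for each difference below.

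Fgfr1 (ENSMUSG00000031565, GRCm38/mm10 chromosome 8, 25513654 to 25575718, plus strand) encodes a receptor that is prominent in mesenchyme and also present in many epithelia. It had 124, 164, 190.3, 159.7 and 166 CPM in the E16.5 stabilized libraries, against 257, 333, 345, 297 and 391 CPM in the E16.5 controls. Every stabilized value lay below every control value. The log2 fold change was -1.01 ± 0.122 (edgeR adjusted p = 1.58e-06). The E13.5 stabilized libraries had 169.8, 205, 178 and 178 CPM of Fgfr1, against 150.3, 142, 131 and 133 CPM in the E13.5 controls. The groups did not overlap here either, with the stabilized one above, as for 9.93% of all genes tested. The log2 fold change of 0.40 ± 0.135 (95% interval 0.11 to 0.68) did not pass (edgeR adjusted p = 0.0559). It lay close to the threshold, and over the alternative settings the edgeR or DESeq2 adjusted p ran from 0.033 to 0.46. The E16.5 effect less the E13.5 effect was -1.41 ± 0.182 (edgeR adjusted p = 7.79e-06).

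Fgfr2 (ENSMUSG00000030849, chromosome 7, minus strand) encodes the receptor of Fgf7 and Fgf10 in its epithelial splice form, which gene counts do not separate from the mesenchymal form. It had 511, 524, 642, 454 and 522 CPM in the E16.5 stabilized libraries, against 280.4, 332, 309.5, 259.5 and 345 CPM in the E16.5 controls. All stabilized values were higher, and the log2 fold change was 0.80 ± 0.135 (edgeR adjusted p = 8.45e-05). At E13.5 it had 486, 680, 578 and 549 CPM in stabilized libraries, against 926, 934, 621 and 904 CPM in controls. The stabilized libraries were lower apart from an overlap with control replicate 3, which lay well under the other controls. The log2 fold change at E13.5 was -0.56 ± 0.151 (edgeR adjusted p = 0.0145). That call did not hold without E13.5 stabilized replicate 1 (-0.49, edgeR adjusted p = 0.0569), in a fit of the E13.5 libraries alone (adjusted p = 0.0596) or with the offsets of the deposited normalized table (adjusted p = 0.141). The E16.5 effect less the E13.5 effect was 1.36 ± 0.203 (edgeR adjusted p = 3.77e-05). The annotated gene runs from 130162451 to 133123350, whereas RefSeq ends it at 130266808; the additional 314 exon bases are shared with Ctbp2 on the same strand, so its counts and per-length levels are uncertain to that extent.

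Fgfr3 (ENSMUSG00000054252, chromosome 5, 33721674 to 33737068, plus strand) encodes a receptor best known for restraining bone growth and also expressed in skin epithelium. It had 72.5, 40.9, 63.5, 39.0 and 61.3 CPM in the E16.5 stabilized libraries, against 3.68, 5.40, 5.04, 4.36 and 6.89 CPM in the E16.5 controls. The groups were far apart, at a log2 fold change of 3.45 ± 0.285 (edgeR adjusted p = 1.2e-08). The E13.5 stabilized libraries had 22.7, 14.2, 27.4 and 28.3 CPM of Fgfr3, against 4.85, 2.47, 7.46 and 4.79 CPM in the E13.5 controls. Again no stabilized value reached down to the controls, and the log2 fold change was 2.24 ± 0.305 (edgeR adjusted p = 2.82e-05). With the offsets implied by the deposited normalized table, the E13.5 value was 1.32 (edgeR adjusted p = 0.0106). Those offsets carried a gene factor for Fgfr3, relative to the library median, of 1.28 ± 0.147 in E13.5 stabilized and 0.690 ± 0.185 in E13.5 control libraries. The effect at E16.5 exceeded that at E13.5 by 1.21 ± 0.394 (edgeR adjusted p = 0.0239). That difference no longer passed without E13.5 control replicate 3 (0.93, edgeR adjusted p = 0.0614) or without E13.5 stabilized replicate 2 (1.03, edgeR adjusted p = 0.0503).

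Fgfr4 (ENSMUSG00000005320, chromosome 13, 55152640 to 55168759, plus strand), a receptor known from liver and muscle, was at the edge of detection. Its estimated counts were 4, 0, 17, 9 and 0 in the E16.5 stabilized libraries, against 0, 31, 6, 5 and 0 in the E16.5 controls. At E13.5 they were 45, 12, 1 and 0 in stabilized libraries, against 46, 1, 0 and 1 in controls. In each group 1 or 2 libraries held most of the counts. The log2 fold change was -0.40 at E16.5 (95% interval -3.97 to 3.17) and 0.46 at E13.5 (95% interval -3.46 to 4.38). With counts this low and this uneven between libraries, differences of many fold in either direction lay within these intervals.

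**Figure D2:**
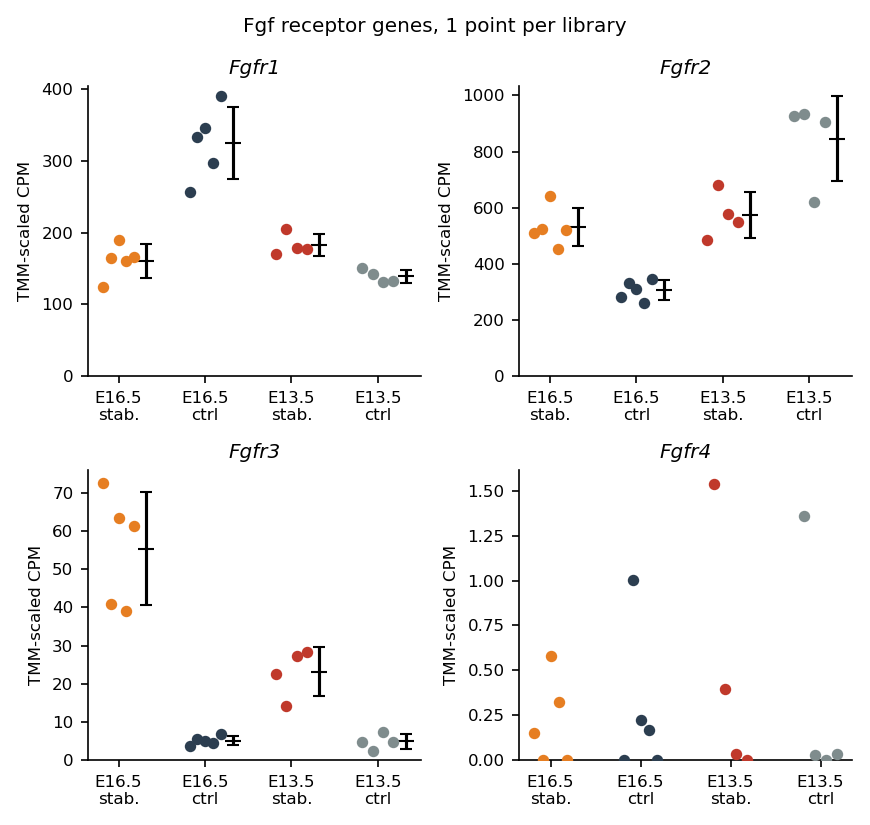
CPM of the 4 Fgf receptor genes, 1 point per library, by stage and genotype, with the mean and SD beside the points except for Fgfr4; each panel has its own axis from 0. Fgfr1 is highest in the E16.5 controls, Fgfr2 is highest in the E13.5 controls and Fgfr3 is high in both stabilized groups.

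Set side by side per length of exon model, the receptors made up a different balance in each group. The ratio of Fgfr2 to Fgfr1, in CPM per kilobase within each library, was 3.19 ± 0.461 in E16.5 stabilized and 0.907 ± 0.0894 in E16.5 control libraries. It was 2.99 ± 0.190 in E13.5 stabilized and 5.81 ± 0.885 in E13.5 control libraries. Both stabilized groups therefore lay between the 2 control groups, and ranges of 2.72 to 3.94 at E16.5 and 2.74 to 3.17 at E13.5 left the stabilized groups overlapping. Fgfr3 made up 10.3 ± 2.51% of the summed receptor level in E16.5 stabilized and 1.11 ± 0.125% in E16.5 control libraries. Its share was 4.27 ± 1.37% in E13.5 stabilized and 0.757 ± 0.455% in E13.5 control libraries. The summed receptor level was 75.5 ± 9.19 CPM per kilobase in E16.5 stabilized, 63.2 ± 8.38 in E16.5 control, 77.4 ± 8.67 in E13.5 stabilized and 96.8 ± 15.0 in E13.5 control libraries. These ratios and shares are given as descriptions without a test. They use 1 exon-model length per gene and leave out the gene factors of the deposited normalized table, as does the Etv5 to Etv4 ratio below. Relative to the library median, the Fgfr1 factor was 0.866 ± 0.167 in E13.5 control and 1.15 ± 0.0849 in E16.5 control libraries. For Fgfr3 it was 1.28 ± 0.147 in E13.5 stabilized and 0.690 ± 0.185 in E13.5 control libraries.

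**Figure D3:**
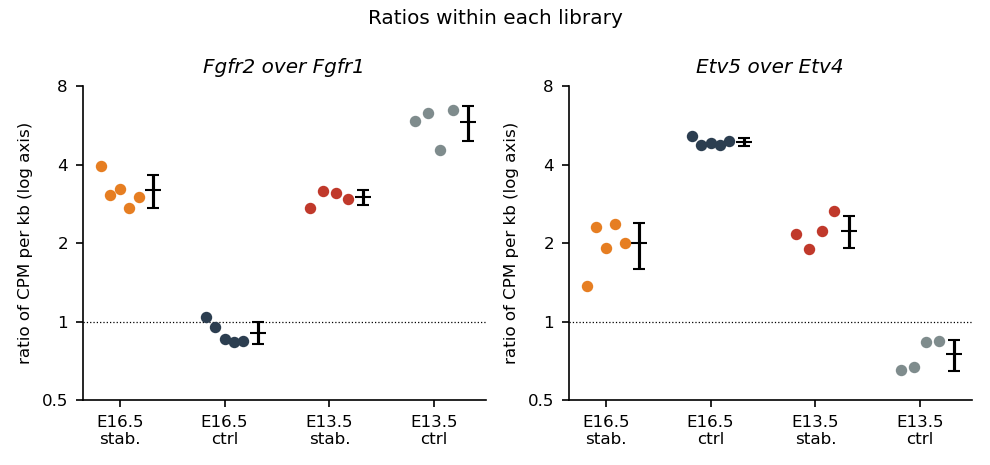
Ratio of Fgfr2 to Fgfr1 and of Etv5 to Etv4 in each library, from CPM per kilobase, on log axes with a dotted line at 1; bars beside the points give the mean and SD. The E16.5 controls lie near 1 for the receptors and near 5 for the ETS factors, while the E13.5 controls lie highest for the receptors and under 1 for the ETS factors.

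In the plot of ratios, the 2 control groups form the extremes for both pairs of genes. The ratio of Etv5 to Etv4 was 1.99 ± 0.402 in E16.5 stabilized and 4.88 ± 0.159 in E16.5 control libraries. It was 2.23 ± 0.310 in E13.5 stabilized and 0.748 ± 0.102 in E13.5 control libraries.

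Markers of mesenchyme, the tissue around the bud, were measured beside these receptor differences because Fgfr1 is also used there. The 11 markers summed to 389 to 683 CPM in E16.5 stabilized and 113 to 400.0 CPM in E16.5 control libraries. Of the 11, 1 rose and 2 fell, where 22.2% of all genes tested rose and 19.4% fell. Dcn alone gave 211 to 383 CPM in E16.5 stabilized and 0.892 to 9.02 CPM in E16.5 control libraries, whereas Pdgfra averaged 16.9 and 48.1 CPM in those groups. At E13.5 the sum was 76.4 to 255 CPM in stabilized and 24.3 to 540.4 CPM in control libraries. None of the 11 markers was called there, where 9.58% of all genes tested rose and 5.29% fell. Dpt had no count in the E13.5 controls, and no other marker of the list was at 0 in any group. The part of mesenchymal RNA in the receptor values was not tested.

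Among the feedback genes, Etv5 and Dusp6 fell at E16.5 and rose at E13.5, Spry1 rose at both stages, and Spry2 and Spry4 rose at E13.5 and did not pass at E16.5. The promoters of the 3 feedback genes whose genotype effect was lower at E16.5 than at E13.5 (Dusp6, Etv5 and Spry2) are printed because these genes moved the same way in that difference. Each is the stretch of 250 bases before an annotated start, 5′ to 3′ on the gene's strand, from RefSeq GRCm38.p6. Capitals mark matches to GGAAG, the core bound by ETS factors, or to CTTTGT or CTTTGA, the core bound by Lef and Tcf factors, on either strand.
Dusp6, chr10:99262981-99263230, plus strand: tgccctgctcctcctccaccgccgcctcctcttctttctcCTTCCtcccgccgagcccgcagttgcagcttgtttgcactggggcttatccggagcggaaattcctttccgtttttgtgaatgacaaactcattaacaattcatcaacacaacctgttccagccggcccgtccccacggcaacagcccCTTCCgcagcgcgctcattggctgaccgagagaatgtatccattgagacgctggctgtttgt
Etv5 upstream start, chr16:22439571-22439820, minus strand: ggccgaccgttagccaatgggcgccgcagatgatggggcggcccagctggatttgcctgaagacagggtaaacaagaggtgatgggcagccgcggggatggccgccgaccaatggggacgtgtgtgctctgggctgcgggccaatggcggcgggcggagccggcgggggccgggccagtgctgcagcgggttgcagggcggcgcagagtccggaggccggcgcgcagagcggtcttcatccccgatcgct
Etv5 downstream start, chr16:22438369-22438618, minus strand: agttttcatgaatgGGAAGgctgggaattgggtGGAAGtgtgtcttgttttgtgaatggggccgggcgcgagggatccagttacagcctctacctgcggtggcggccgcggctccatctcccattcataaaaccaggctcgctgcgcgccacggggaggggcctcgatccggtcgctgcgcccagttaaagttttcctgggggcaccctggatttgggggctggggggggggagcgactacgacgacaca
Spry2, chr14:105896820-105897069, minus strand: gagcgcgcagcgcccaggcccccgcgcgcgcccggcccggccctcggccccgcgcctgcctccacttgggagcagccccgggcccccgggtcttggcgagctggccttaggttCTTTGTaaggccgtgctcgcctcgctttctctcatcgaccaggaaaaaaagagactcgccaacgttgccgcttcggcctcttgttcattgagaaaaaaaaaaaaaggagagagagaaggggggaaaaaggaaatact
In Dusp6, GGAAG was found on the opposite strand, where it reads CTTCC, 210 and 62 bases before the start. The upstream start of Etv5 held none of the motifs, and its downstream start held GGAAG 236 and 217 bases before the start. Spry2 held CTTTGT 137 bases before its start and no GGAAG. Of all 32851 promoter windows of this length, 64.1% held GGAAG, 6.91% its longer form CCGGAAG, which contains GGAAG, 13.8% CTTTGA and 16.46% CTTTGT, so these matches are common and describe only the letters of these windows. G and C made up 56.4% of the Dusp6 window, 71.2 and 62.0% of those of Etv5 and 62.4% of that of Spry2, beside a median of 52.4% over all windows. The table had an entry for 7 of the 10 genes.

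Etv5 (ENSMUSG00000013089, chromosome 16, 22381309 to 22439719, minus strand) encodes an ETS factor that carries Fgf signals to target genes. It had 126, 200.0, 162, 122 and 184 CPM in the E16.5 stabilized libraries, against 563, 527, 544, 483 and 521 CPM in the E16.5 controls. Every stabilized library was under every control, and the log2 fold change was -1.73 ± 0.143 (edgeR adjusted p = 1.15e-08). At E13.5 it had 190.3, 213, 216 and 212 CPM in stabilized libraries, against 105, 96.7, 67.5 and 99.8 CPM in controls. Here every stabilized library was above every control, and the log2 fold change was 1.17 ± 0.157 (edgeR adjusted p = 2.4e-05). The E16.5 effect less the E13.5 effect was -2.90 ± 0.212 (edgeR adjusted p = 1e-08), the largest of the 10 genes in size.

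Etv4 (ENSMUSG00000017724, chromosome 11, 101769742 to 101785371, minus strand), which encodes a close relative of Etv5, did not follow it. It had 69.95, 65.4, 64.1, 39.0 and 69.9 CPM in the E16.5 stabilized libraries, against 82.9, 83.7, 85.3, 76.7 and 80.2 CPM in the E16.5 controls. The groups did not overlap, with the stabilized one below, as for 17.9% of all genes tested. The log2 fold change of -0.41 ± 0.170 (95% interval -0.76 to -0.05) did not pass (edgeR adjusted p = 0.062). The E13.5 stabilized libraries had 66.5, 85.3, 73.5 and 60.6 CPM of Etv4, against 122, 109, 61.3 and 89.8 CPM in the E13.5 controls. The groups overlapped through control replicate 3, and the log2 fold change of -0.42 ± 0.190 (95% interval -0.82 to -0.02) did not pass (edgeR adjusted p = 0.161). Without that library it was -0.58 at E13.5 (edgeR adjusted p = 0.0221), and the E16.5 value also passed in that fit (adjusted p = 0.0252). The difference between the stage effects was 0.01 ± 0.254 (95% interval -0.52 to 0.55; edgeR adjusted p = 0.993).

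Dusp6 (ENSMUSG00000019960, chromosome 10, 99263231 to 99267489, plus strand) encodes the phosphatase that inactivates ERK in the cytoplasm. It had 387, 419.5, 445, 426 and 376 CPM in the E16.5 stabilized libraries, against 579, 741, 643, 654 and 598 CPM in the E16.5 controls. The stabilized libraries all lay lower, and the log2 fold change was -0.65 ± 0.120 (edgeR adjusted p = 0.000211). At E13.5 it had 523, 662, 619 and 661 CPM in stabilized libraries, against 167, 222, 228 and 268 CPM in controls. The stabilized libraries all lay higher, and the log2 fold change was 1.48 ± 0.137 (edgeR adjusted p = 2.89e-07). The E16.5 effect less the E13.5 effect was -2.13 ± 0.182 (edgeR adjusted p = 7.32e-08).

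**Figure D4:**
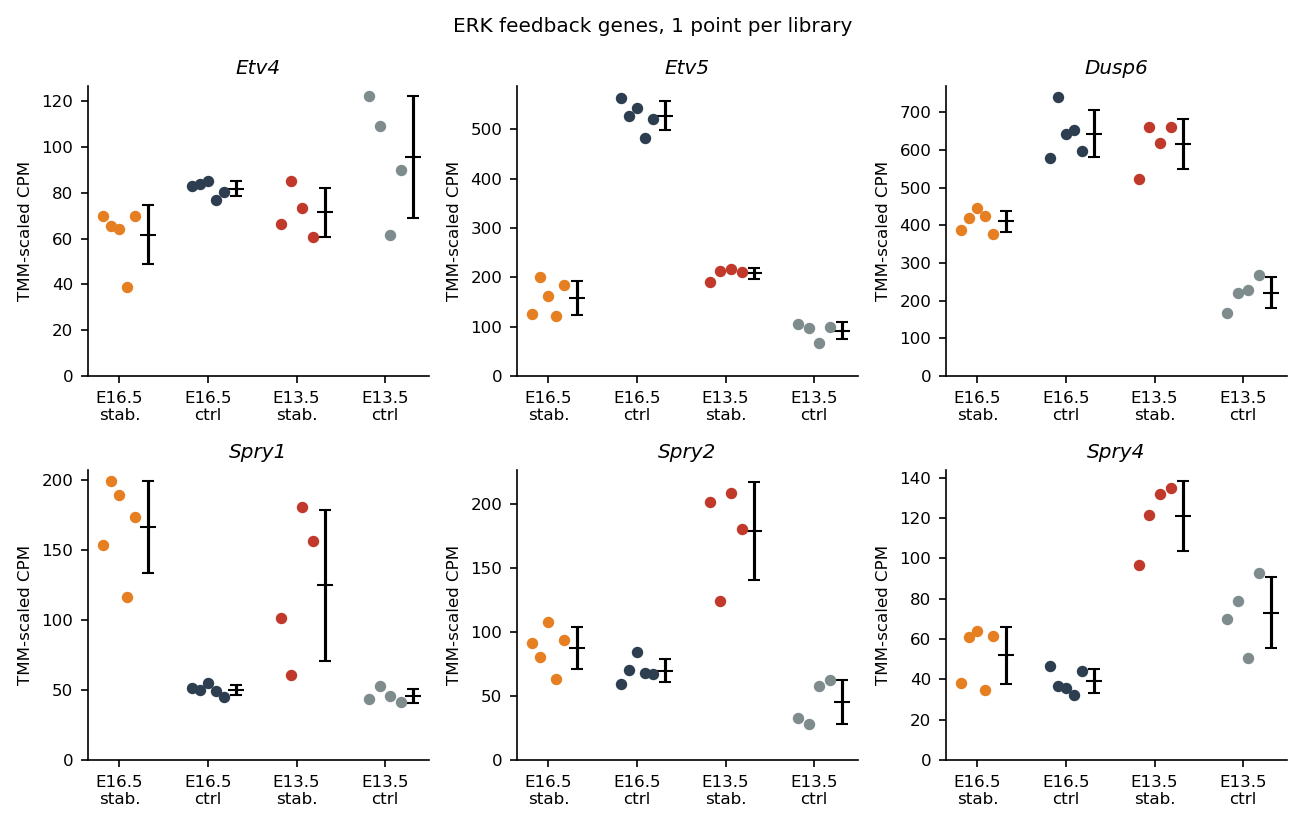
CPM of the 6 ERK feedback genes, 1 point per library, by stage and genotype, with the mean and SD beside the points; each panel has its own axis from 0. Etv5 and Dusp6 switch the order of the genotypes between stages, and Spry1 is higher in stabilized libraries at both.

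Spry1 (ENSMUSG00000037211, chromosome 3, 37639947 to 37644598, plus strand), a Sprouty that restrains receptor tyrosine kinase signalling, had 153, 199, 189, 117 and 173 CPM in the E16.5 stabilized libraries, against 51.2, 50.1, 54.8, 49.3 and 44.8 CPM in the E16.5 controls. The controls were tightly grouped and all stabilized values stood above them, at a log2 fold change of 1.73 ± 0.215 (edgeR adjusted p = 2.62e-06). The E13.5 stabilized libraries had 101, 61.0, 181 and 156 CPM of Spry1, against 43.5, 52.5, 45.4 and 41.2 CPM in the E13.5 controls. The stabilized values were more scattered but again all higher, at a log2 fold change of 1.45 ± 0.238 (edgeR adjusted p = 0.000242). The difference between the stage effects was 0.28 ± 0.314 (95% interval -0.38 to 0.94) and did not pass (edgeR adjusted p = 0.543).

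Spry2 (ENSMUSG00000022114, chromosome 14, 105891947 to 105896819, minus strand), another inhibitor of that family, had 91.5, 80.3, 107, 63.2 and 93.3 CPM in the E16.5 stabilized libraries, against 59.3, 69.9, 84.5, 68.0 and 67.4 CPM in the E16.5 controls. The groups overlapped, and the log2 fold change of 0.32 ± 0.203 (95% interval -0.11 to 0.75) did not pass (edgeR adjusted p = 0.225). At E13.5 it had 202, 124, 208 and 180.4 CPM in stabilized libraries, against 33.0, 28.2, 57.5 and 62.5 CPM in controls. There the stabilized libraries were all higher, at a log2 fold change of 1.98 ± 0.235 (edgeR adjusted p = 6.28e-06). The E16.5 effect less the E13.5 effect was -1.66 ± 0.307 (edgeR adjusted p = 0.000352).

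Spry4 (ENSMUSG00000024427, chromosome 18, 38586247 to 38601415, minus strand), the last of the Sproutys here, had 38.2, 61.1, 64.0, 34.9 and 61.4 CPM in the E16.5 stabilized libraries, against 46.8, 36.7, 35.6, 32.3 and 44.2 CPM in the E16.5 controls. The groups overlapped, since stabilized replicates 1 and 4 lay among the controls, and the log2 fold change of 0.41 ± 0.187 (95% interval 0.02 to 0.80) did not pass (edgeR adjusted p = 0.0873). Without stabilized replicate 4 it was 0.51 (edgeR adjusted p = 0.0271), and without stabilized replicate 1 it was 0.50 (edgeR adjusted p = 0.0387). The E13.5 stabilized libraries had 96.5, 121, 132 and 135 CPM of Spry4, against 69.9, 79.0, 50.7 and 92.6 CPM in the E13.5 controls. The groups lay close together without overlap, at a log2 fold change of 0.73 ± 0.209 (edgeR adjusted p = 0.0216). That call was lost without E13.5 control replicate 1 or 3 or E13.5 stabilized replicate 3 or 4, where the edgeR adjusted p was 0.0539, 0.058, 0.0619 and 0.0628, and with the offsets of the deposited normalized table (0.71, edgeR adjusted p = 0.0622). The difference between the stage effects was -0.32 ± 0.279 (95% interval -0.90 to 0.26; edgeR adjusted p = 0.418).

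The makeup of the Sprouty transcripts differed between groups, again as a description from levels per kilobase. Spry1 made up 52.0 ± 2.92% of the summed Sprouty level in E16.5 stabilized and 29.3 ± 1.72% in E16.5 control libraries. Its share was 26.9 ± 6.46% in E13.5 stabilized and 30.4 ± 6.45% in E13.5 control libraries. The sum of the 3 genes was 109.9 ± 20.1 CPM per kilobase in E16.5 stabilized, 58.9 ± 4.55 in E16.5 control, 153.9 ± 35.5 in E13.5 stabilized and 52.8 ± 8.02 in E13.5 control libraries.

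The same values were also compared between stages within each genotype; these comparisons share libraries with those above. In controls, Fgfr1, Etv5, Dusp6 and Spry2 were higher at E16.5 than at E13.5, and Fgfr2 and Spry4 were lower, 4 and 2 of 10, where 24.9% and 22.6% of all genes tested were called. In stabilized buds Fgfr3 was higher at E16.5 and Dusp6, Spry2 and Spry4 were lower, so that 4 of 10 were called in either direction, where 28.0% of all genes were. Dusp6 rose by 1.54 ± 0.132 on the log2 scale in controls (edgeR adjusted p = 1.59e-08) and fell by 0.59 ± 0.127 in stabilized buds (edgeR adjusted p = 0.00163). Etv5 rose by 2.52 ± 0.160 in controls (edgeR adjusted p = 2.79e-10), while its log2 value in stabilized buds was -0.39 ± 0.147 (edgeR adjusted p = 0.0559). Fgfr2 fell by 1.47 ± 0.143 in controls (edgeR adjusted p = 8.63e-08) and had -0.11 ± 0.143 in stabilized buds (95% interval -0.41 to 0.19; edgeR adjusted p = 0.622).

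Fgfr1 rose by 1.22 ± 0.132 in controls (edgeR adjusted p = 3.28e-07), a value that was 0.78 with the offsets of the deposited table (edgeR adjusted p = 0.00225), and had -0.18 ± 0.128 in stabilized buds (95% interval -0.45 to 0.08; edgeR adjusted p = 0.32). Fgfr3 rose by 1.26 ± 0.282 in stabilized buds (edgeR adjusted p = 0.00215) and had 0.05 ± 0.282 in controls (95% interval -0.54 to 0.64; edgeR adjusted p = 0.903). Spry4 was the only one of the 10 genes called in the same direction in both genotypes, and fell by 1.22 ± 0.197 in stabilized buds (edgeR adjusted p = 0.000109) and by 0.90 ± 0.197 in controls (edgeR adjusted p = 0.000893). Spry2 fell by 1.04 ± 0.215 in stabilized buds (edgeR adjusted p = 0.00119) and rose by 0.62 ± 0.218 in controls (edgeR adjusted p = 0.0246). The rise in controls no longer passed without E13.5 control replicate 1 (adjusted p = 0.0857) or 2 (adjusted p = 0.0901), or without E16.5 control replicate 3 (edgeR adjusted p = 0.0742).

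Beside these stage differences, immediate-early genes, which ERK and tissue handling both induce, were higher at E16.5 in both genotypes. Of 10 such genes, 8 rose and 1 fell in stabilized buds and 9 rose and none fell in controls, with median log2 values of 2.94 and 2.92. Of all genes tested, 28.0% were called in either direction in stabilized buds, and 24.9% rose and 22.6% fell in controls. Markers of melanocytes summed to 98.8 to 184 CPM in E16.5 stabilized, 72.4 to 138 CPM in E16.5 control, 11.2 to 22.5 CPM in E13.5 stabilized and 10.7 to 16.7 CPM in E13.5 control libraries. Their part in the stage values of the feedback genes was not tested.

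The rest of the pathway was counted on lists written by function, beside all genes tested, of which 22.2% rose and 19.4% fell at E16.5 and 9.58% rose and 5.29% fell at E13.5. Of 22 Fgf ligand genes, 18 were tested; 8 rose and none fell at E16.5, and 7 rose and 3 fell at E13.5. The median log2 value was 2.01 at E16.5 and 0.39 at E13.5, also with genes that had no count in controls placed at their lower bound. Fgf20, a ligand of early hair and mammary placodes, averaged 20.3 and 0.696 CPM in E16.5 stabilized and control libraries, a log2 fold change of 4.85 ± 0.328 (edgeR adjusted p = 7.64e-10). It also rose at E13.5, by 1.56 ± 0.305 (edgeR adjusted p = 0.00118). Fgf9, its close relative, rose by 2.03 ± 0.223 at E16.5 (edgeR adjusted p = 5.02e-07) and by 2.31 ± 0.253 at E13.5 (edgeR adjusted p = 2.11e-06). Fgf11, which stays inside the cell, rose by 1.81 ± 0.208 at E16.5 (edgeR adjusted p = 8.29e-07) and fell by 1.12 ± 0.225 at E13.5 (edgeR adjusted p = 0.00149). Fgf3 and Fgf15 had no count in the E13.5 controls and averaged 21.3 and 13.3 CPM in the E13.5 stabilized libraries, at least 912 and 570.2-fold higher against a floor of 3 counts over the control group. Fgf4, Fgf5, Fgf8 and Fgf12, named here after their values were seen, also had no count in the E13.5 controls. They averaged 92.9, 0.524, 8.04 and 0.161 CPM in the E13.5 stabilized libraries, at least 3975, 22.4, 344 and 6.90-fold higher against that floor. Of these, Fgf12 did not pass (edgeR adjusted p = 0.0664).

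Of 23 tested co-receptor and heparan sulphate genes, 8 rose and 9 fell at E16.5, and 6 rose and none fell at E13.5. Gpc1, which encodes a heparan sulphate proteoglycan, rose by 1.31 ± 0.140 at E16.5 (edgeR adjusted p = 3.48e-07) and by 1.44 ± 0.157 at E13.5 (edgeR adjusted p = 2.02e-06). Fgfbp1, which releases Fgfs from the matrix, rose by 4.54 ± 0.486 at E16.5 (edgeR adjusted p = 1.21e-06) and by 2.80 ± 0.525 at E13.5 (edgeR adjusted p = 0.00128). Gpc6, another glypican, fell by 1.64 ± 0.171 at E16.5 (edgeR adjusted p = 2.49e-07) and rose by 0.89 ± 0.188 at E13.5 (edgeR adjusted p = 0.00241). Sulf2, which trims sulphate groups from heparan sulphate, rose by 1.00 ± 0.190 at E16.5 (edgeR adjusted p = 0.000272) and by 2.25 ± 0.221 at E13.5 (edgeR adjusted p = 5.46e-07). Fgfrl1, an Fgf receptor without a kinase domain, named here after its values were seen, averaged 12.3 and 32.6 CPM in E16.5 stabilized and control libraries and 14.5 and 5.48 CPM in E13.5 stabilized and control libraries. Like Etv5 and Dusp6, it fell at E16.5 (-1.41 ± 0.267, edgeR adjusted p = 0.000262) and rose at E13.5 (1.40 ± 0.301, edgeR adjusted p = 0.00276).

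Of 21 genes that relay the signal from receptor to ERK, 4 rose and 5 fell at E16.5 and 1 rose and 1 fell at E13.5, with medians of -0.06 and -0.03. Braf, which encodes a Raf kinase, rose by 1.80 ± 0.150 at E16.5 (edgeR adjusted p = 1.31e-08), while the adaptor gene Shc1 fell by 1.00 ± 0.142 (edgeR adjusted p = 1.06e-05). At E13.5 the docking protein gene Gab1 rose by 0.72 ± 0.128 (edgeR adjusted p = 0.000501) and the scaffold gene Ksr1 fell by 1.00 ± 0.222 (edgeR adjusted p = 0.00352).

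Of 11 tested ERK feedback genes outside the 10 described here, 4 rose and 5 fell at E16.5, and 3 rose and 2 fell at E13.5, with median log2 values of -0.83 and 0.35, where 22.2% and 19.4% of all genes were called in those directions at E16.5 and 9.58% and 5.29% at E13.5. At E16.5 the phosphatase genes Dusp9 and Dusp4 fell by 2.35 ± 0.201 and 1.13 ± 0.168 (edgeR adjusted p = 1.87e-08 and 1.92e-05), and Lrig1, an inhibitor of receptor tyrosine kinases, fell by 1.95 ± 0.242 (edgeR adjusted p = 2.21e-06). Dusp9 rose by 0.74 ± 0.214 at E13.5 (edgeR adjusted p = 0.0234). At E13.5 Errfi1, which inhibits Egfr, rose by 1.42 ± 0.194 (edgeR adjusted p = 3e-05), while the ETS factor gene Etv1 fell by 1.02 ± 0.228 and Spred3 by 0.96 ± 0.215 (edgeR adjusted p = 0.0036 and 0.00395). Errfi1 also rose at E16.5, by 0.45 ± 0.171 (edgeR adjusted p = 0.0399). Spred3 rose by 1.27 ± 0.196 at E16.5 (edgeR adjusted p = 2.96e-05). Spred1, a relative of the Sproutys named here after its values were seen, fell by 0.87 ± 0.134 at E16.5 (edgeR adjusted p = 2.65e-05) and rose by 0.65 ± 0.149 at E13.5 (edgeR adjusted p = 0.00436).

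Among 10 immediate-early genes, 1 rose and 4 fell at E16.5 and 2 rose and none fell at E13.5. Egr3 rose at both stages, by 2.21 ± 0.520 at E16.5 and 2.24 ± 0.628 at E13.5 (edgeR adjusted p = 0.00255 and 0.022). Myc fell by 2.25 ± 0.288 and Egr2 by 2.85 ± 0.620 at E16.5 (edgeR adjusted p = 6.15e-06 and 0.0015), while Phlda1 fell by 0.47 ± 0.118 at E16.5 (edgeR adjusted p = 0.00331) and rose by 1.41 ± 0.134 at E13.5 (edgeR adjusted p = 3.87e-07).

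Among 15 other receptor tyrosine kinases, 5 rose and 6 fell at E16.5 and 2 rose and 2 fell at E13.5. Ret, the receptor for Gdnf, rose by 7.10 ± 0.696 at E16.5 and 3.86 ± 0.687 at E13.5 (edgeR adjusted p = 5.45e-07 and 0.000882). Egfr, the receptor for Egf, rose by 2.68 ± 0.145 at E16.5 (edgeR adjusted p = 3.61e-11) and by 0.59 ± 0.153 at E13.5 (edgeR adjusted p = 0.012). Kit fell by 1.83 ± 0.207 at E16.5 and 2.09 ± 0.233 at E13.5 (edgeR adjusted p = 7.08e-07 and 2.66e-06), and Erbb4 fell by 3.14 ± 0.583 at E13.5 (edgeR adjusted p = 0.00128). Esrp1 and Esrp2, the splicing regulators that favour the epithelial form of Fgfr2, rose by 0.39 ± 0.127 and 2.14 ± 0.187 at E16.5 (edgeR adjusted p = 0.0192 and 2.51e-08). Esrp2 also rose at E13.5, by 0.75 ± 0.201 (edgeR adjusted p = 0.0146), and Esrp1 did not pass.

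**Figure D5:**
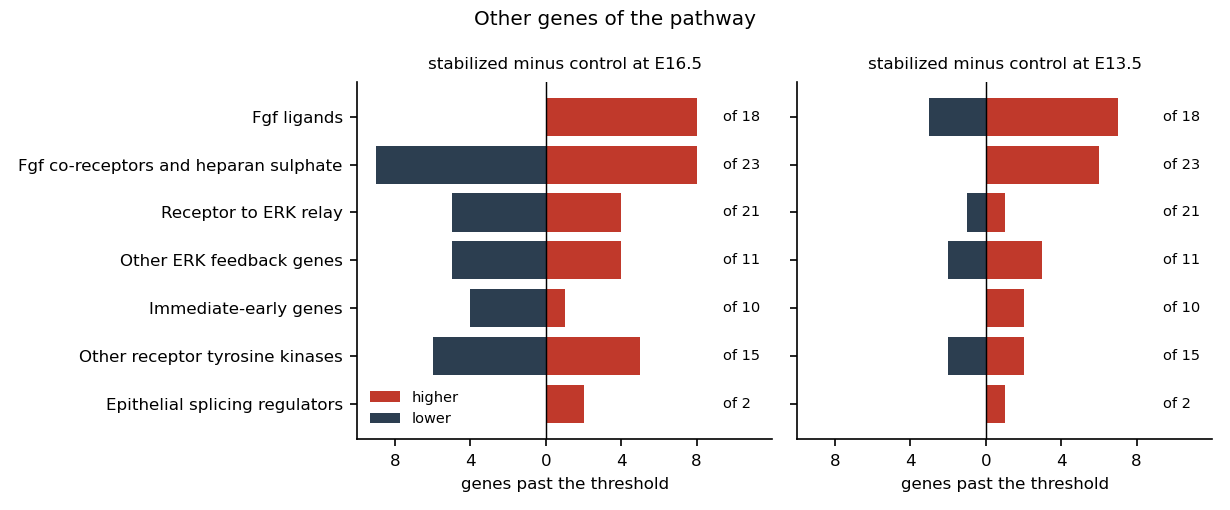
Number of genes higher (red, right) and lower (dark, left) in stabilized than in control libraries at an edgeR adjusted p under 0.05, for each list of pathway genes, at E16.5 (left panel) and E13.5 (right panel), with the number tested at the right. Fgf ligands have 8 higher and none lower at E16.5, while feedback genes and co-receptors have calls on both sides at that stage.

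The plot of pathway counts sets these lists side by side. The gene nearest to each of the 10 in profile, by root-mean-square distance of log2 CPM centred on each gene's mean over the 18 libraries, was found among 12631 genes. Nearest to Etv5 was Etv6, another ETS factor gene, at 0.196, where the median gene lay at 1.05. Etv6 averaged 94.8 ± 11.8 CPM in E16.5 stabilized, 312 ± 22.5 in E16.5 control, 109 ± 5.62 in E13.5 stabilized and 63.8 ± 7.67 in E13.5 control libraries. The second nearest was the replication gene Mcm3, at 0.213.

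Fgfr1 lay nearest to Nr1d2 (0.163) and Haus6 (0.171), Fgfr2 to Marf1 (0.158) and Tmem19 (0.175), and Etv4 to Cabin1 (0.149) and Abca3 (0.153). Dusp6 lay nearest to Zdbf2 (0.296) and Nck2 (0.304), and Spry1 to Sh3bp4 (0.288) and Prkch (0.289). Spry2 lay nearest to Glul (0.382) and Adam10 (0.385), Spry4 to Pxdn (0.306) and Amot (0.315), and Fgfr3 to Casz1 (0.447) and Filip1l (0.475). Fgfr4 had no close neighbour, since its nearest genes, Fads6 and Hyal3, lay at 1.28 and 1.33. All libraries are shared in these distances, and the nearness of 2 profiles is a description of these libraries alone.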

How the data were processed

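RNA-seq of mammary bud epithelium was analysed in 18 libraries of 4 groups. Tools listed by the submitters' processing notes are Salmon 0.99.0, Trimmomatic 0.39, FastQC 0.11.8, MultiQC 1.9 and DESeq2 3.15, with the build mm10. Not given in the sources used here were their settings, the annotation release and the strand. The main table holds estimated counts per Ensembl gene as deposited by the authors, already whole numbers. The second deposited table holds a signal, the count scaled by gene and library; its scaling served as offsets in 1 alternative. Strand being unknown, Fgfr1, Fgfr3 and Spry1 share 164, 998 and 710 exon bases with genes on the opposite strand, whose reads could count for them.

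Of 24376 genes, 24166 had a symbol, and positions came from GENCODE M21. In edgeR 4.0.16 (R 4.3.3), filterByExpr (minimum count 10) kept 17269 genes. All 18 libraries, scaled by TMM, entered 1 robust quasi-likelihood fit with a mean for each group (common dispersion 0.25), with Benjamini-Hochberg adjustment over all genes and a threshold of 0.05. The fit was run on counts simulated from its own model with planted changes. That run checks the code and cannot show whether the model holds for these libraries. P-values measure the spread between pools, treated as independent. Replicates of a group differed by far more than sampling noise. Log2 CPM for distances used a prior count of 2. Counts limit precision mainly for Fgfr4.

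The 10 genes and the lists (159 genes, 157 in the table) were chosen with earlier results of these data known. Named were the 10 genes, up to 3 genes per list and genotype comparison with the smallest adjusted p, Esrp1, Esrp2, the 2 nearest profiles per gene, and Axin2 as a check of the model; 1 gene that this rule names is not reported here. Alternatives were DESeq2 1.42.0, RLE factors, no filter, the offsets, the compared groups alone, the replicate number as a block, and leaving out each library, E13.5 control replicate 3 with E16.5 stabilized replicate 1, or, added after seeing the data, E13.5 control replicate 3 with E16.5 stabilized replicate 4.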

Additional observations from a re-analysis of the deposited data

Results flagged for a closer look

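Each of the 10 genes was checked in each of the 4 groups. In 4 places 1 library lay apart from its group by a gap that chance gives in about 5% of groups, so some such gaps are due to arise among all those checked. That rate is for normally distributed values, which the few counts of Fgfr4 are not. Fgfr2 was lowest in E13.5 control replicate 3, at 621 CPM, where the other E13.5 controls had 904 to 934 CPM. Etv4 was lowest in E16.5 stabilized replicate 4, at 39.0 CPM, where the other libraries of that group had 64.1 to 69.95 CPM. Fgfr4 was highest in E16.5 control replicate 2, at 1.002 CPM, where the others had 0 to 0.226 CPM. It was also highest in E13.5 control replicate 1, at 1.36 CPM, where the others had 0 to 0.0324 CPM.

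For 6 of the 10 genes the genotype effect at E16.5 differed from that at E13.5 by the test of the difference in edgeR, where 15.6% of all genes were called with a positive and 16.6% with a negative difference. On the log2 scale, E16.5 less E13.5, it was -2.90 for Etv5 (adjusted p = 1e-08), -2.13 for Dusp6 (adjusted p = 7.32e-08), -1.66 for Spry2 (adjusted p = 0.000352) and -1.41 for Fgfr1 (adjusted p = 7.79e-06). It was 1.36 for Fgfr2 (adjusted p = 3.77e-05) and 1.21 for Fgfr3 (adjusted p = 0.0239).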

How the results depend on the processing

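Over 50 results of single genes, 1246 of 1286 values under the alternatives kept their side of the threshold, 14 lost a call, 26 gained one and none reversed a call. The sign was kept in 1266 of 1286; the others were values of Fgfr4, Etv4 and Fgfr3 that passed neither in the reported fit nor under the alternative. With DESeq2, Fgfr1 at E13.5 passed (0.39, adjusted p = 0.033), as did Etv5 between stages in stabilized buds (-0.37, adjusted p = 0.0409). The genes called at E13.5 numbered 2569, against 1712 with the offsets of the deposited table and 1651 with the E13.5 libraries alone; leaving out 1 library gave 1920 to 3035. Without E13.5 control replicate 3 and E16.5 stabilized replicate 1, and without E13.5 control replicate 3 and E16.5 stabilized replicate 4 (chosen after seeing the data), Etv4 at E13.5 gave adjusted p = 0.018 and 0.0025 and Spry4 at E16.5 gave 0.0215 and 0.0108. The first of these also left the Fgfr3 difference between stages at 0.83 (adjusted p = 0.101). Spry1 between stages in stabilized buds passed without E13.5 stabilized replicate 3 (0.65, adjusted p = 0.0395). The replicate numbers did not pair the libraries (correlations of deviations of same-numbered libraries -0.099 to 0.172, and not every library matched its own number best); with the replicate block 2219 genes were called at E13.5, Fgfr1 at E13.5 passed (adjusted p = 0.0358) and Etv4 at E16.5 passed (adjusted p = 0.0467). The causes of these changes were not tested. Counts that were low and uneven between libraries limit what can be said of Fgfr4.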
